A study of Homo sapiens with 6 samples.

Results

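The RNAs described here are the long noncoding RNAs that carry a LINC symbol (the letters LINC and a number, the name given to long intergenic noncoding RNAs of no assigned function) and that were expressed in macrophage-like THP-1 cells. Members were chosen by their read counts: a gene was taken when its mean over the 6 libraries reached 0.5 CPM, CPM being the reads of a gene relative to all reads counted in its library, in parts per 1e6. This held for 197 of 1926 LINC-named genes, among 57316 gene names counted. The choice used the level over all libraries and not the difference between treatments, so the levels below are a description and the difference is what was tested. No read was counted in any library for 1195 LINC-named genes.

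THP-1 is an established human monocytic leukaemia line. The cells of every library had first been exposed to the phorbol ester PMA (100 ng/ml, 48 h), which gives them macrophage features. For a further 24 h the CXCL10 group then received recombinant human CXCL10 (100 ng/mL), a chemokine that interferon induces and whose receptor is CXCR3, and the control group a control solution. Polyadenylated RNA was sequenced from 3 libraries per group, which bear the replicate numbers 1, 3 and 4 in both groups; values below follow that order. Whether these came from separate cultures is not said in the labels; the p-values therefore reflect only how far these samples differ from each other, and that spread may be technical.

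Long noncoding RNAs are transcribed by RNA polymerase II, usually capped, often spliced and polyadenylated, but not translated into a known protein. Many are kept in the nucleus at low copy number and in few cell types. Some act at the locus they are transcribed from, where the RNA or the act of transcription alters a neighbouring gene, others are hosts of microRNAs or small nucleolar RNAs, and for most no function is known.

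Library totals lay between 34.8 and 41.0 M reads. Of 12 myeloid markers, 11 had at least 1 CPM (CD68 did not), and the epithelial, T cell and erythroid markers summed to at most 0.390 CPM per list in any library. COL1A1 among the fibroblast markers also reached 1 CPM. Control replicate 4 stood apart from the other libraries: its TMM factor, which scales library totals, was 0.929 against 0.995 to 1.05 in the other 5, and it was the highest or the lowest library in 55.1% of all genes tested. CXCL10 replicate 3 came next, as the highest or lowest library in 45.0% of all genes tested.

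The promoters of 4 members are printed to show what lies at the starts of these RNAs. Among the members with a promoter sequence, LINC01145 had the lowest p-value above control and LINC00662 the lowest below it. LINC01184 represents members that start beside a coding gene on the other strand, and LINC01010 represents members with an AP-1 motif. The sequences are from RefSeq (GRCh38.p14) and run 5′ to 3′ on the RNA's strand. They cover 250 bases before to 50 bases after the RefSeq start. For these 4 members that start lay within 6 bases of the start of the counted gene. Capitals mark matches to the GC box GGGCGG, the AP-1 motif TGANTCA and GAGGAA, the core of ETS factors such as PU.1, each on either strand.
LINC01145 (chr1:145216003-145216302, minus strand): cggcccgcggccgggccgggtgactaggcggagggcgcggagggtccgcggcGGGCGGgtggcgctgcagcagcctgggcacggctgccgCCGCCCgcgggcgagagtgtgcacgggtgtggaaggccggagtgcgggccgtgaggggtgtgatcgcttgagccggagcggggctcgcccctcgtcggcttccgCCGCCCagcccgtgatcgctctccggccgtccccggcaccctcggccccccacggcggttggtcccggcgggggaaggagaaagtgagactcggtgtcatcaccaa
LINC00662 (chr19:27793891-27794190, minus strand): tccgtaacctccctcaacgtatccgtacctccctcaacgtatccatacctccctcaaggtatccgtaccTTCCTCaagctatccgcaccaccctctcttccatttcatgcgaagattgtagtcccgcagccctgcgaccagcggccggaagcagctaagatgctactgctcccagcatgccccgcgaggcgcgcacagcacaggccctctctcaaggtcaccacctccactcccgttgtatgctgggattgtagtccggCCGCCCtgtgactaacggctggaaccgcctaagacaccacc
LINC01184 (chr5:128083126-128083425, minus strand): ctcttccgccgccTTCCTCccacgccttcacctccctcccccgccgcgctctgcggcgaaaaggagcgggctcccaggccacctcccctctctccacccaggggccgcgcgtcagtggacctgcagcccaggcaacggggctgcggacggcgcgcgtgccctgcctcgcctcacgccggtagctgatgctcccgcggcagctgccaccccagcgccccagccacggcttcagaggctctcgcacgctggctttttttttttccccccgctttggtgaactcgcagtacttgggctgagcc
LINC01010 (chr6:134437466-134437765, plus strand): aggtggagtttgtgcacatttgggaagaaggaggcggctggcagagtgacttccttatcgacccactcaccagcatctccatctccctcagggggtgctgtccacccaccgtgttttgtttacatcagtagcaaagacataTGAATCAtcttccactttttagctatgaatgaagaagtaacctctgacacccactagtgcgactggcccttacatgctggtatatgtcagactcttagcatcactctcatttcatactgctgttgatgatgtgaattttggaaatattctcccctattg

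The LINC01145 window held 3 GC boxes and the LINC00662 window a GC box and a GAGGAA core. The LINC01184 window was 70.3% G and C, held 29 CpG dinucleotides and had a GAGGAA core 237 bases before the start. The LINC01010 window held TGAATCA 109 bases before the start. A match is a description of the letters and not a site of binding.

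The expressed LINC RNAs formed a low and skewed pool. Together they took 0.10% ± 0.0030 of all counted reads in CXCL10 libraries and 0.0988% ± 0.0020 in control libraries (mean ± SD, n = 3 each). The median member had a mean of 1.56 CPM, against 22.9 CPM over 12550 protein-coding genes that met the same level rule. Per length the gap was narrower. On a TPM-like scale, where counts are divided by exon length and every library is brought to the same sum, the medians were 2.32 for members and 12 for protein-coding genes. At least 1 CPM was reached by 133 members, 5 CPM by 46, 10 CPM by 24 and 20 CPM by 10. The most abundant member, LINC00963, held 8.14% of the members' summed CPM, the top 4 held 23.8% and the top 20 held 55.7%.

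CPM is given from here on scaled by the TMM factors, unless it is said to be unscaled. Fold changes are log2 ratios of CXCL10 over control with their standard error, from edgeR's quasi-likelihood test fitted over all 16531 genes that passed its filter on low counts. All 197 members passed that filter. Adjusted p-values are by Benjamini-Hochberg over the 16531 genes.

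LINC00963 (chr9:129483451-129513686, plus strand), described in prostate cancer cells, had 85.0, 68.0 and 84.1 CPM in CXCL10 libraries, against 83.3, 80.8 and 84.9 CPM in control libraries. The groups overlapped, with CXCL10 replicate 3 the lowest library. This gave a log2 fold change of -0.07 ± 0.13 (adjusted p = 0.928).

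LINC01578 (chr15:92882707-92899701, plus strand) is now named CHASERR. It lies upstream of the chromatin remodeller gene CHD2, and loss of CHASERR is known to raise CHD2 in mouse and human cells. LINC01578 had 58.5, 54.9 and 45.5 CPM in CXCL10 libraries, against 59.2, 61.1 and 73.8 CPM in control libraries. All 3 CXCL10 libraries were below all 3 control libraries, by a margin under 1 CPM between the nearest pair. With -0.29 ± 0.15 the log2 fold change did not pass the test (adjusted p = 0.702), and it was -0.18 without control replicate 4. CHD2, looked up for this known relation after its values were seen, had 58.2, 91.3 and 71.3 CPM in CXCL10 libraries, against 66.4, 60.4 and 50.4 CPM in control libraries. These groups overlapped in CXCL10 replicate 1. The log2 fold change of CHD2 was 0.32 ± 0.17 (adjusted p = 0.712), also not past the test, and it was 0.22 without control replicate 4.

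LINC00599, now MIR124-1HG, is a host gene of the microRNA miR-124, which is best known from neurons. It averaged 50.2 ± 9.44 CPM in CXCL10 libraries and 49.1 ± 8.21 CPM in control libraries (SD, n = 3 each), with overlapping groups and a log2 fold change of 0.03 ± 0.17. LINC00623 averaged 44.7 ± 5.08 CPM in CXCL10 libraries and 49.7 ± 1.08 CPM in control libraries. LINC01305 averaged 33.8 ± 5.64 CPM in CXCL10 libraries and 28.9 ± 2.56 CPM in control libraries. Neither passed the test, with log2 fold changes of -0.15 ± 0.14 for LINC00623 and 0.23 ± 0.15 for LINC01305. LINC00623 lies beside the near-identical PPIAL4 gene copies of chromosome 1, where reads with several possible origins were dropped, so its level is uncertain.

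LINC01137 (chr1:37454879-37474411, minus strand), now LITATS1, starts 169 bases from ZC3H12A, which encodes the RNase Regnase-1 that degrades inflammatory mRNAs. LINC01137 had 28.9, 23.9 and 26.9 CPM in CXCL10 libraries, against 31.3, 29.9 and 34.6 CPM in control libraries. The groups did not overlap, and the log2 fold change of -0.26 ± 0.14 did not pass the test (adjusted p = 0.712). ZC3H12A itself had a log2 fold change of 0.26 ± 0.21 (adjusted p = 0.804), and 0.016 without control replicate 4.

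The next most abundant members had overlapping groups. LINC00649 averaged 24.0 ± 0.363 CPM in CXCL10 libraries and 22.0 ± 1.82 CPM in control libraries. LINC00667 averaged 22.4 ± 0.443 CPM in CXCL10 libraries and 23.4 ± 1.40 CPM in control libraries. Of the exon length of LINC00667, 25.3% lies opposite exons of other genes. The kit marks strand but the counting did not use it, and featureCounts leaves out reads over 2 genes, so its value is uncertain. LINC00504 was more variable within a group, with 23.0, 32.5 and 19.7 CPM in CXCL10 libraries and 19.6, 20.8 and 25.9 CPM in control libraries. LINC02169 averaged 19.0 ± 2.27 CPM in CXCL10 libraries and 20.1 ± 3.34 CPM in control libraries.

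LINC00467 and LINC01547 were the 2 of the 12 most abundant members whose difference rested most on control replicate 4. LINC00467 (chr1:211382803-211435333, plus strand), also described as coding for a mitochondrial microprotein, had 21.0, 18.0 and 20.6 CPM in CXCL10 libraries, against 22.8, 21.2 and 33.7 CPM in control libraries. The groups did not overlap, but control replicate 4 was far above the other 5 libraries. This gave a log2 fold change of -0.38 ± 0.18 (adjusted p = 0.694), and -0.14 without that library. LINC01547 had 20.5, 17.1 and 26.8 CPM in CXCL10 libraries, against 17.7, 20.4 and 10.02 CPM in control libraries. Here control replicate 4 was far below the rest. LINC01547 gave 0.42 ± 0.24 (log2 fold change, adjusted p = 0.722), and 0.18 without it.

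**Figure D1:**
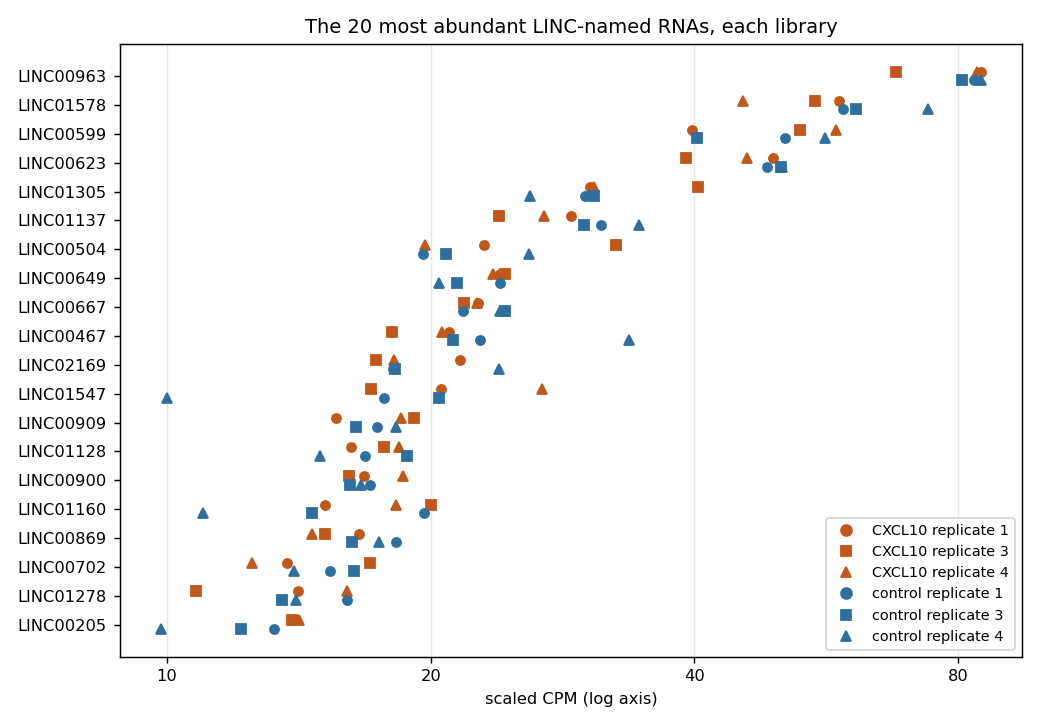
Scaled CPM of the 20 most abundant LINC-named RNAs on a log axis, with CXCL10 libraries above control libraries in each row and the replicate number given by the marker. LINC00963 lies near 80 CPM and the other 19 spread down to about 10 CPM, the groups overlap in most rows, and control replicate 4 is the outlying point in LINC00467 and LINC01547.

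Ranked per exon length, the order changed, and some short transcripts moved up. LINC02169 (854 bases of exon) reached a TPM-like level of 67.0, LINC00623 66.8 and LINC01137 61.4. LINC02356, with 353 bases of exon, reached 44.4, and LINC02244, with 323 bases, 39.2. LINC01160 followed at 35.7. LINC01605, LINC02001 and LINC01436 also ranked high per length, at 15.5, 16.5 and 19.4. LINC00963, first in CPM, had 13171 bases of exon and 18.1 on this scale. None of the members in this ranking passed the test. LINC01160 averaged 17.8 ± 2.47 CPM in CXCL10 libraries and 15.1 ± 4.35 CPM in control libraries, LINC02356 4.57 ± 1.07 CPM in CXCL10 libraries and 6.25 ± 1.49 CPM in control libraries. LINC01605 averaged 8.0 ± 1.41 CPM in CXCL10 libraries and 7.98 ± 1.40 CPM in control libraries. For LINC01436 the averages were 6.88 ± 1.76 CPM in CXCL10 libraries and 6.85 ± 0.575 CPM in control libraries. LINC02001, now SNHG30, is the host of the small nucleolar RNA SNORD7 and averaged 7.94 ± 1.44 CPM in CXCL10 libraries and 8.99 ± 1.14 CPM in control libraries.

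The question of the series is what CXCL10 does to these macrophages. No LINC RNA passed the test: 0 of 197 had an adjusted p under 0.05 in edgeR's quasi-likelihood test, the lowest member value being 0.683, and the background was 0% of the 16531 genes tested. DESeq2 and limma-voom also called 0 members. At an unadjusted p under 0.05 there were 7 members (3.55%), 1 higher and 6 lower. The background was 7.14% of all genes tested (2.5% higher and 4.65% lower), and it was not matched for level. The median in unscaled CPM was 1.56 for members and 16.8 for all other genes that met the same level rule. The CXCL10 and control libraries did not overlap in 19 members (9.64%), 7 higher and 12 lower, against a background of 12.2% (5.76% higher and 6.48% lower). In these bulk libraries fewer cells of a type and less RNA per cell cannot be told apart.

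The members' log2 fold changes were centred just below 0. Their median was -0.08, with the middle 50% from -0.24 to 0.12 and a range from -0.88 to 0.87, against a median of 0.02 over all genes tested. Of the 197 members, 80 had a positive and 117 a negative estimate. The summed level of the members was 961, 975 and 985 CPM in CXCL10 libraries, against 1017, 982 and 1050.1 CPM in control libraries. Control replicate 3 fell within the CXCL10 range, and control replicate 4 was the highest. The median moved with the scaling: with library totals alone and no TMM factor it was 0.0055, and the median of all genes moved up to 0.10. On that scaling 4 members were higher and 2 lower at an unadjusted p under 0.05 (3.05%), against 744 higher and 407 lower (6.96%) of the 16531 genes tested. With the trend of counts over gene length removed, the members' median was 0.0036. Without control replicate 4 it was -0.04.

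**Figure D2:**
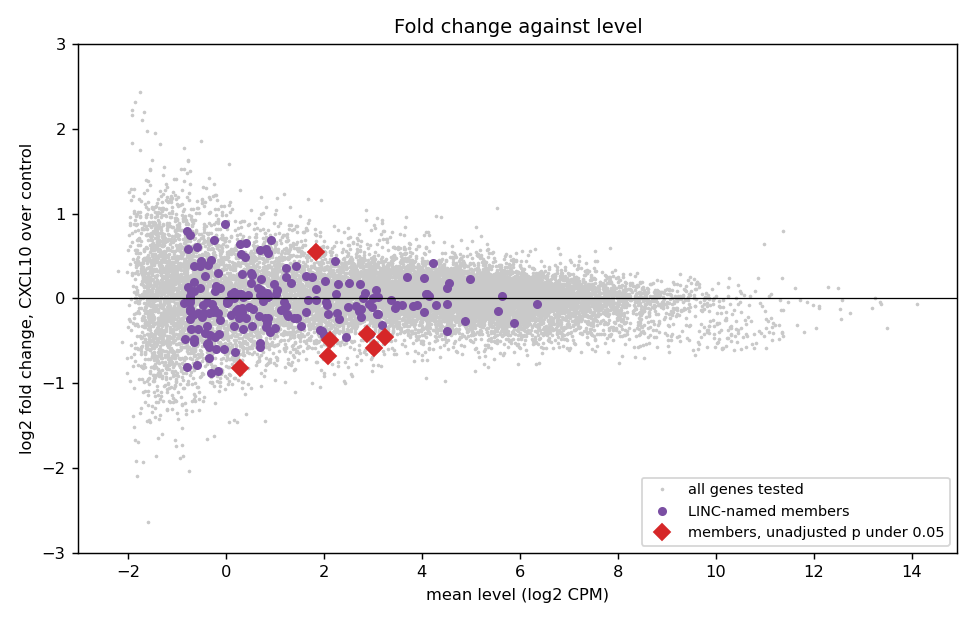
Log2 fold change of CXCL10 over control against mean level in log2 CPM, for all 16531 genes tested (grey) and the 197 members (purple), with the 7 members at an unadjusted p under 0.05 as red diamonds. The members lie inside the cloud of all genes, between -0.88 and 0.87, and 6 of the 7 diamonds lie below 0.

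**Figure D3:**
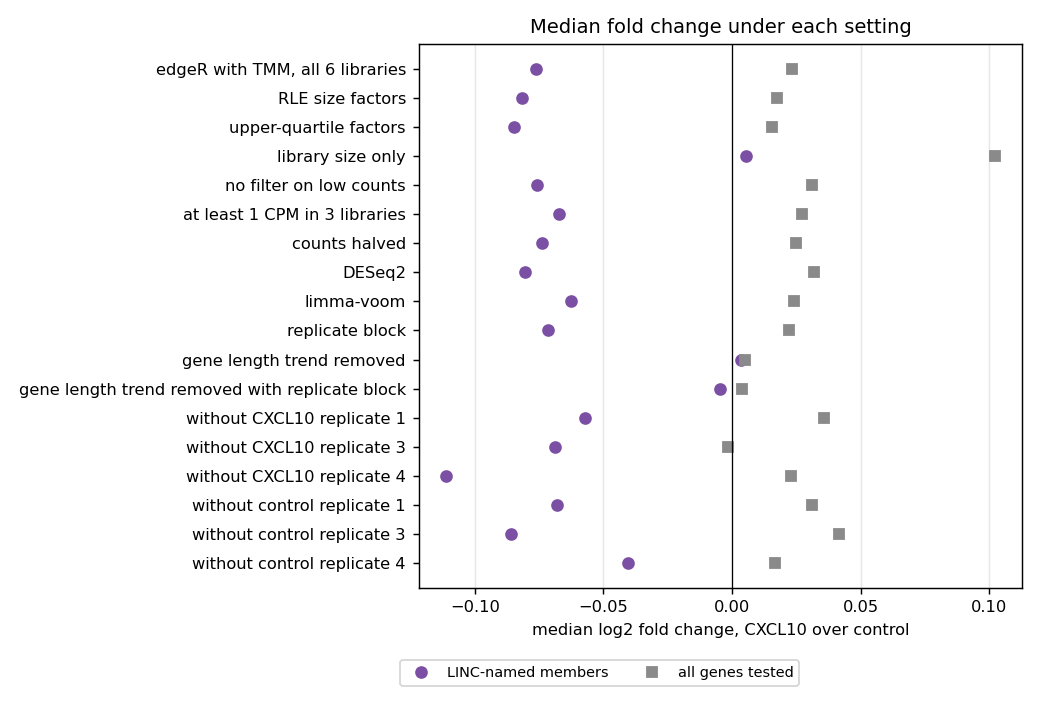
Median log2 fold change of the members (purple circles) and of all genes tested (grey squares) under each processing setting and with each library left out. The members' median lies at or below -0.04 except with library totals alone and with the gene length trend removed, where it lies within 0.01 of 0.

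The intervals bound what these libraries could show. The 95% interval of the fold change ran no further than -1 to 1 on the log2 scale, a change of less than 2-fold either way, for 114 of 197 members (57.9%), against 74.4% of all genes tested. Precision followed level. Among the 64 members from 0.5 to 1 CPM the median distance from the estimate to an end of the interval was 0.97, and 7 intervals lay within -1 and 1. Among the 87 members from 1 to 5 CPM it was 0.65 with 62 such intervals, and among the 36 from 5 to 20 CPM it was 0.39 with 35. For the 10 members above 20 CPM it was 0.31, and all 10 intervals lay within -1 and 1. The spread between libraries narrowed likewise: the median coefficient of variation among members from 0.5 to 1 CPM was 31.3% over CXCL10 libraries and 35.5% over control libraries, and above 20 CPM it was 11.8% over CXCL10 libraries and 8.58% over control libraries. At 0.5 CPM a gene had only 17.4 to 20.5 reads per library. As both mates of a fragment were counted, the number of fragments was lower still.

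The members named next had the lowest p-values in each direction, and none is past the test. Without CXCL10 replicate 3, the 7 at an unadjusted p under 0.05 had log2 fold changes from -0.93 to 0.53. Without control replicate 4 theirs ran from -0.73 to 0.41. All 7 kept their sign, but they were picked by p in these same libraries. Groups that do not overlap must keep their sign when 1 library is left out, so this is a description only. The log2 fold change of LINC02611 was -0.58 with all libraries and -0.18 without control replicate 4. By p, the first member below control was LINC01169 (chr15:66582190-66685794, plus strand). It had 4.04, 2.69 and 2.89 CPM in CXCL10 libraries, against 4.22, 5.05 and 6.16 CPM in control libraries. All CXCL10 libraries were below all control libraries, although CXCL10 replicate 1 came close to control replicate 1. Its estimate was -0.68 ± 0.23 (log2 fold change), with a 95% interval of -1.18 to -0.18 (adjusted p = 0.683).

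LINC00662 (chr19:27684580-27793940, minus strand), whose promoter is printed above, is a spliced RNA of 14 exon blocks described in several cancers. It had 7.52, 8.51 and 8.05 CPM in CXCL10 libraries, against 9.24, 11.4 and 12.4 CPM in control libraries. The CXCL10 libraries lay close together, below every control library. They gave a log2 fold change of -0.45 ± 0.17, with an interval of -0.83 to -0.082 (adjusted p = 0.683), and -0.36 without control replicate 4. Its nearest coding gene, UQCRFS1, which encodes an iron-sulfur subunit of respiratory complex III, is 1411380 bases away.

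LINC01960 (chr2:174025280-174027163, plus strand), in 1 exon block, had 0.836, 0.974 and 0.729 CPM in CXCL10 libraries, against 1.53, 1.30 and 1.70 CPM in control libraries. The groups did not overlap. The log2 fold change of -0.83 ± 0.32 was the largest of the 7 in size, on the lowest level (adjusted p = 0.683). LINC02244 (chr15:99395179-99396593, minus strand) had 3.72, 3.08 and 3.95 CPM in CXCL10 libraries, against 5.07, 5.87 and 4.19 CPM in control libraries. Its groups did not overlap either, with a log2 fold change of -0.49 ± 0.21 (adjusted p = 0.683).

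The other 2 members at an unadjusted p under 0.05 and below control had overlapping groups. LINC01943 (chr2:87439523-87459044, minus strand) had 7.60, 5.45 and 5.80 CPM in CXCL10 libraries, against 7.53, 8.28 and 9.51 CPM in control libraries. CXCL10 replicate 1 exceeded control replicate 1. Its log2 fold change was -0.42 ± 0.19 (adjusted p = 0.684). Of the exon length of LINC01943, 27.5% lies opposite exons of CYTOR and another gene, where reads fall on 2 genes and were left out in a count without strand, so its level is uncertain. CYTOR, a more abundant long noncoding RNA, had 50.9, 42.4 and 43.0 CPM in CXCL10 libraries, against 50.1, 54.6 and 75.3 CPM in control libraries, a log2 fold change of -0.40 ± 0.16 (adjusted p = 0.683) that was -0.20 without control replicate 4. LINC02611 (chr2:98761938-98772920, minus strand) had 5.69, 8.12 and 5.64 CPM in CXCL10 libraries, against 7.84, 6.91 and 14.5 CPM in control libraries. Control replicate 4 alone was high, and the log2 fold change of -0.58 ± 0.26 (adjusted p = 0.684) was -0.18 without it.

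LINC00467, described above, and LINC01138 completed the 8 lowest p-values below control. LINC01138 averaged 6.48 ± 1.06 CPM in CXCL10 libraries and 8.68 ± 1.44 CPM in control libraries, with a log2 fold change of -0.42 ± 0.20 (adjusted p = 0.694). The gene lies in the duplicated PPIAL4 region of chromosome 1, with 20.9% of its exon length opposite other exons, and its level is uncertain for both reasons.

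Above control, LINC01145 (chr1:145164099-145216058, minus strand) was the single member at an unadjusted p under 0.05. It had 3.88, 4.34 and 4.35 CPM in CXCL10 libraries, against 3.60, 2.70 and 2.30 CPM in control libraries. Every CXCL10 library was above every control library. This was a log2 fold change of 0.54 ± 0.23, with a 95% interval of 0.058 to 1.03 (adjusted p = 0.683). GENCODE 29 lists it as a transcribed pseudogene, and it too lies beside a PPIAL4 copy, so the left-out reads of near-identical copies make its level uncertain.

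LINC02035 (chr3:122886941-122892416, plus strand) had 1.40, 1.72 and 1.51 CPM in CXCL10 libraries, against 0.983, 0.900 and 1.08 CPM in control libraries. The groups did not overlap, and the spread within each was small. LINC02035 had a log2 fold change of 0.65 ± 0.30 (adjusted p = 0.694). LINC02593 (chr1:916865-921016, minus strand) had 1.94, 2.39 and 1.77 CPM in CXCL10 libraries, against 1.55, 1.32 and 1.20 CPM in control libraries. Again every CXCL10 library was above every control library, with a log2 fold change of 0.58 ± 0.28 (adjusted p = 0.694). Its neighbour SAMD11, 2912 bases away, had a log2 fold change of 0.78 ± 0.33 (adjusted p = 0.683), and 0.50 without control replicate 4.

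The other members among the 8 lowest p-values above control were LINC01547, given above, and 4 more, all with overlapping groups. LINC01907 averaged 2.28 ± 0.686 CPM in CXCL10 libraries and 1.40 ± 0.545 CPM in control libraries, where control replicate 4 was the lowest library, and its log2 fold change of 0.69 ± 0.35 was 0.41 without that library. LINC00641 averaged 5.34 ± 1.47 CPM in CXCL10 libraries and 3.94 ± 0.537 CPM in control libraries. It lies 2236 bases from HNRNPC, which encodes an RNA-binding protein of nascent transcripts and had a log2 fold change of 0.02. LINC00923 averaged 1.19 ± 0.463 CPM in CXCL10 libraries and 0.645 ± 0.440 CPM in control libraries. The log2 fold change of LINC00923 was 0.87 ± 0.49, and 0.50 without control replicate 4. LINC00862 averaged 0.983 ± 0.137 CPM in CXCL10 libraries and 0.606 ± 0.255 CPM in control libraries.

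**Figure D4:**
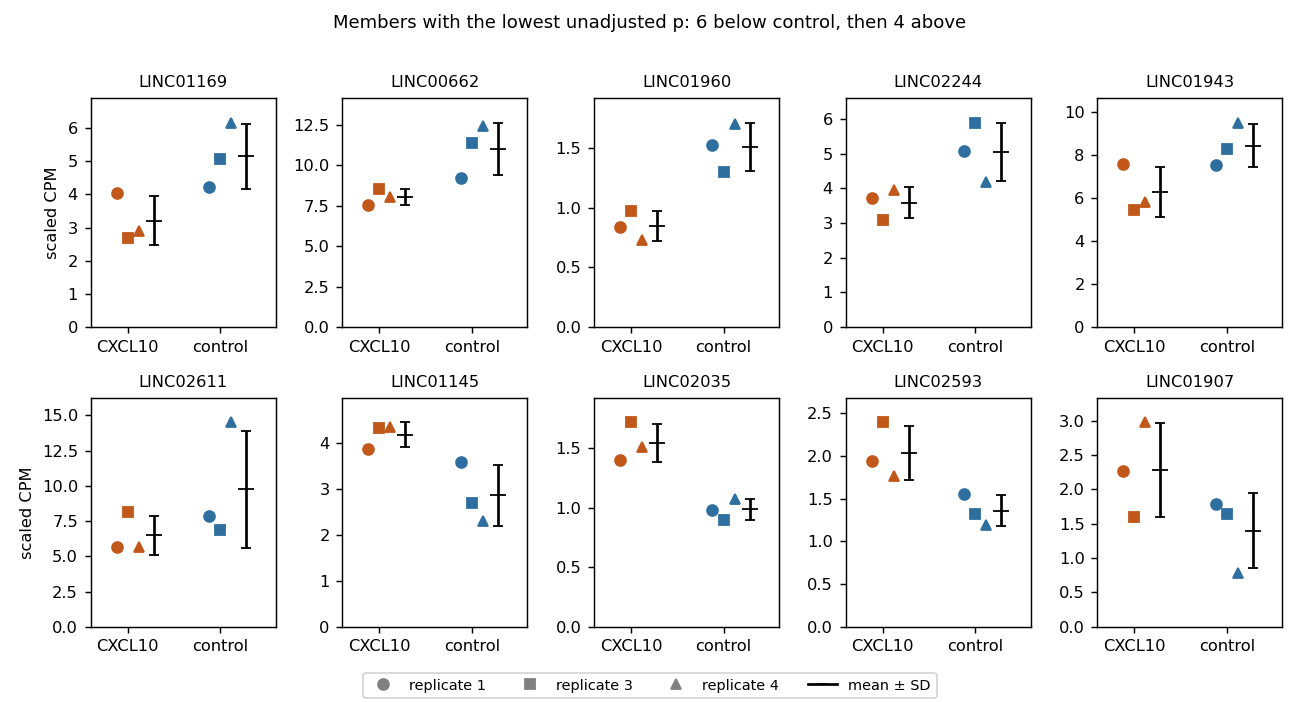
Scaled CPM in each library for the 6 members with the lowest p below control and the 4 with the lowest p above it, CXCL10 on the left and control on the right of each panel, with mean ± SD beside the points (n = 3 each). The groups are separate in 7 of the 10 panels, LINC02611 rests on control replicate 4, and none of the 10 passed the test after adjustment.

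Members tied by background knowledge to a role or to myeloid cells were also looked up from a list of names. LINC01010 (chr6:134437716-134504581, plus strand), whose promoter with the AP-1 motif is printed above, had 9.55, 8.88 and 7.46 CPM in CXCL10 libraries, against 9.96, 10.3 and 5.20 CPM in control libraries. Control replicate 4 was the lowest library and the other 5 lay within 3 CPM of each other. The log2 fold change was 0.02 ± 0.24, and -0.23 without control replicate 4. LINC01094 averaged 10.5 ± 0.379 CPM in CXCL10 libraries and 11.3 ± 2.17 CPM in control libraries. LINC00996, beside the GIMAP genes that encode immune-associated GTPases, averaged 4.5 ± 1.08 CPM in CXCL10 libraries and 5.34 ± 0.675 CPM in control libraries. LINC00528, 2552 bases from the pro-apoptotic BCL2 family gene BID, averaged 1.47 ± 0.387 CPM in CXCL10 libraries and 1.05 ± 0.0806 CPM in control libraries, without overlap and with a log2 fold change of 0.49 ± 0.32 (adjusted p = 0.765).

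The rest of that list did not pass the test and had overlapping groups. Their log2 fold changes were -0.09 ± 0.18 for LINC01278, 0.10 ± 0.20 for LINC00342, -0.12 ± 0.18 for LINC01003, -0.18 ± 0.22 for LINC00174 and -0.18 ± 0.24 for LINC01503. At lower levels they were -0.33 ± 0.31 for LINC00877, -0.20 ± 0.35 for LINC01140, -0.46 ± 0.40 for LINC00324, 0.46 ± 0.45 for LINC00265 and 0.26 ± 0.40 for LINC01355. Without control replicate 4, LINC00877 was at -0.0039 and LINC00324 at -0.25. LINC02345 averaged 1.07 ± 0.531 CPM in CXCL10 libraries and 1.07 ± 0.211 CPM in control libraries, with an interval of -0.86 to 0.86.

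Some members varied widely between libraries. The widest ratio of the highest to the lowest library in unscaled CPM was 12.4 for LINC01433, which had 0.0809, 0.394 and 0.981 CPM in CXCL10 libraries and 0.750, 0.450 and 0.867 CPM in control libraries. The lowest value rests on 3 reads. With every read taken as independent, the counting interval of the ratio runs from 3.90 to 62.9 (exact, 95%). As both mates of a fragment were counted, that interval is too narrow. LINC01215 followed with a ratio of 9.49, at 0.971, 0.464 and 0.841 CPM in CXCL10 libraries and 0.466, 1.06 and 0.120 CPM in control libraries. Next came LINC02296 with 9.07, LINC00923 with 8.01 and LINC02562 with 7.59. The lowest libraries of these ratios also rest on few reads: 4 for LINC01215, 6 for LINC02296, 8 for LINC00923 and 4 for LINC02562. LINC00472 had a ratio of 6.04 at 1.38, 2.55 and 1.68 CPM in CXCL10 libraries and 1.27, 2.01 and 0.478 CPM in control libraries. Control replicate 4 was the lowest library in 5 of these 6, all but LINC01433. LINC00472 has the longest exon length of the members, 19875 bases, and spans the hairpins of MIR30A and MIR30C2 on its own strand. The log2 fold change of LINC00472 was 0.57 ± 0.42, and 0.20 without control replicate 4. Over all members, control replicate 4 was the highest library in 62 and the lowest in 40, together 51.8%, against 55.1% of all genes tested.

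The level rule fell in a dense range. Just inside it were LINC00987, LINC02158, LINC01154 and LINC01376 with unscaled means of 0.528, 0.525, 0.506 and 0.501 CPM. Just outside were LINC02321, LINC01096, LINC02391 and LINC01564 with 0.499, 0.498, 0.496 and 0.487 CPM. Individual libraries of these genes ranged from 5 to 41 reads.

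At their loci, members lay closer to coding genes than the other 1726 LINC-named genes with a place on a single chromosome. The median distance to the nearest protein-coding gene was 14928 bases for members and 60999 bases for the others. A coding gene started on the opposite strand within 1000 bases of the start of 21 members (10.7%), against 35 of the others (2.03%). At least 1 exon base lay opposite an exon of another gene in 51 members (25.9%), against 12.1% of the others. A single exon block made up 25 members (12.7%), against 2.43% of the others. The median exon length was 2583 bases for members and 1164.5 bases for the others, and CPM, which set membership, is not divided by length. RefSeq lists 24 members (12.2%) under another symbol, 10 of them as -DT, meaning divergent transcript of a coding gene, and 4 as antisense RNAs. LINC00672 is listed there as the protein-coding gene LASP1NB. These are descriptions of the loci, and no test was run on them.

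A promoter sequence was found for 145 members among 27305 RefSeq promoters, 22 of them under the newer symbol. The shares below describe windows at RefSeq starts, which for some members lie far from the start of the counted gene. The difference was -5209 bases for LINC00963 and -289874 bases for LINC02458, where minus means that the counted gene starts upstream. The median share of G and C in the 300 bases was 54.0% for members, 47.0% for 1170 other LINC-named genes and 58.3% for all promoters. The GC box GGGCGG was present in 38.6% of members, 16.7% of the other LINC-named genes and 44.6% of all promoters. The CCAAT box was present in 43.4% of members, against 36.6% of other LINC-named genes and 35.7% of all promoters. TATAAA was present in 11.0% of members, against 16.8% of other LINC-named genes and 12% of all promoters. The AP-1 motif TGANTCA was present in 18 members (12.4%), among them LINC00963, LINC01094, LINC01010 and LINC01215, against 14.1% of the other LINC-named genes and 7.76% of all promoters. GAGGAA was present in 29.7% of members, against 27.7% of other LINC-named genes and 27.6% of all promoters. The NF-kB motif, in a form that a script matched as 10 letters, was present in 1 member, LINC01686, and in 0.579% of all promoters. All motifs were searched on both strands, and they do not contain one another. The 17 members with a divergent coding gene and a promoter sequence had a median of 70.3% G and C, and all 17 were at 60% or more.

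The 21 members that start beside a coding gene on the other strand allow a comparison within the pair. Starts were 36 to 671 bases apart, with a median of 182, and 15 pairs ran head to head while the transcripts of 6 overlapped at their starts. The coding partner was the more abundant RNA in 18 pairs, with a median level of 23.0 CPM against 3.97 CPM for the member. Estimates had the same sign in 11 pairs and opposite signs in 10. RUNX1, a transcription factor of blood cells, had a log2 fold change of 0.03 beside 0.01 for LINC01436. SLC12A2, which encodes the sodium-potassium-chloride cotransporter NKCC1, had 0.09 beside -0.08 for LINC01184. BTG2, an antiproliferative gene and p53 target, had 0.04 beside -0.86 for LINC01136, a member with a mean of 0.84 CPM.

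Of the 21 partners, 2 were at an unadjusted p under 0.05, against a background of 7.14% of all genes tested, and none passed adjustment. ATP5PO, which encodes a subunit of mitochondrial ATP synthase, had 24.3, 25.4 and 23.0 CPM in CXCL10 libraries, against 31.4, 31.2 and 68.8 CPM in control libraries. Its log2 fold change was -0.85 ± 0.25 (adjusted p = 0.683), beside 0.12 ± 0.14 for LINC00649, whose exons partly lie opposite those of ATP5PO. FAM207A had 67.0, 51.1 and 50.3 CPM in CXCL10 libraries, against 70.1, 67.2 and 90.7 CPM in control libraries. Control replicate 4 was the highest library for both partners. FAM207A had a log2 fold change of -0.44 ± 0.16 (adjusted p = 0.683), beside 0.42 ± 0.24 for LINC01547. Without control replicate 4 the estimates were -0.37 for ATP5PO and -0.29 for FAM207A.

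Over all members, the nearest coding gene was tested in 161 cases, and the estimates had the same sign in 73 and opposite signs in 88. Of those neighbours, 8 of 161 were at an unadjusted p under 0.05, against a background of 7.14% of all genes tested, and 0 passed adjustment.

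**Figure D5:**
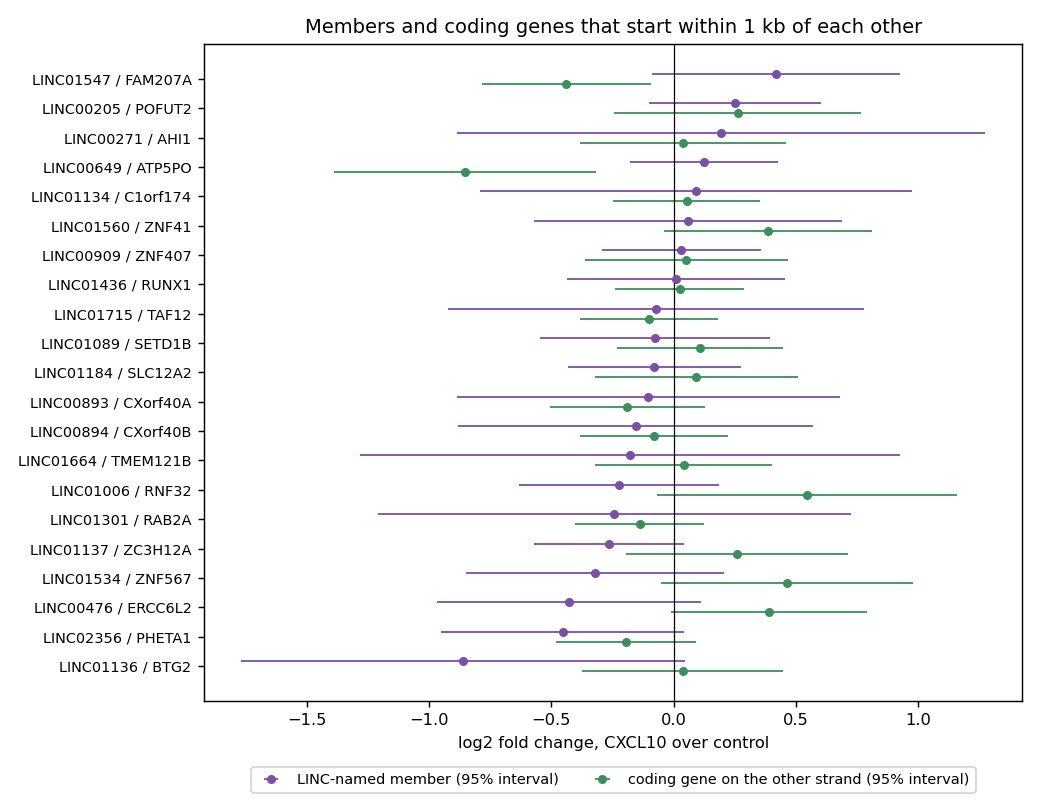
Log2 fold change of CXCL10 over control with 95% intervals for the 21 members (purple) and the coding gene that starts within 1000 bases on the other strand (green), ordered by the member's estimate. All 21 member intervals include 0, and the intervals of 2 partners, ATP5PO and FAM207A, lie below 0.

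Other long noncoding RNAs in the same fit give the setting for these values. Among 62 LINC-named genes that were tested but fell below the level rule, the median log2 fold change was 0.04, with 0 higher and 2 lower at an unadjusted p under 0.05 (3.23%), against a background of 2.5% higher and 4.65% lower, 7.14% in all. Among 383 genes named as antisense RNAs the median was -0.04, with 7 higher and 12 lower (4.96%). Among 21 small nucleolar RNA host genes (SNHG) it was -0.18, with 0 higher and 5 lower (23.8%). Among 18 microRNA host genes it was -0.17, with 0 higher and 2 lower (11.1%). Control replicate 4 was the highest library in 10 SNHG and 7 microRNA host genes, against 4266 of all 16531 genes tested. It was the lowest in 2 SNHG and 3 microRNA host genes, against 4836 of all genes tested. Among 41 tested genes of a list of other long noncoding RNAs, which shares members with these classes, the median was -0.02, with 1 higher and 6 lower (17.1%). None of these genes passed adjustment.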

How the data were processed

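Polyadenylated RNA of 6 THP-1 libraries (3 CXCL10, 3 control) was prepared with a stranded Illumina mRNA kit, per the labels. Trim Galore, STAR, Subread and featureCounts with hg38 are named in the submitters' processing notes. The deposited values are raw read counts per gene name over GENCODE 30 exons, made by the authors with featureCounts 2.0.6 without a strand setting, per the file headers. Both mates were counted, so 1 fragment gives up to 2 reads, and reads over 2 genes or several places were left out. Low counts were even in 75.8% of genes in control replicate 4 and in 66.8% to 68.0% in the other libraries, so some fragments gave 1 read. Library totals were 36.9, 41.0 and 34.8 M reads for CXCL10 replicates 1, 3 and 4, and 38.9, 38.0 and 36.0 M for control replicates 1, 3 and 4. A limit of 3 fragments, taken as 6 reads, is 0.146 to 0.173 CPM and covers counting error only.

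Differences were computed here with edgeR 4.0.16 in R 4.3.3: filterByExpr, TMM, a quasi-likelihood fit with group as the only term over all genes, and Benjamini-Hochberg adjustment with a threshold of 0.05, tested on simulated data. Standard errors come from the fold change and its F statistic. DESeq2 1.42.0, limma 3.58.1 (voom), other scalings and filters, a replicate block, gene length correction and each library left out were alternatives. No batch is given in the labels. Gene types, distances and antisense overlap come from the exon coordinates in the files and GENCODE 29, and newer symbols from RefSeq.

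The members and lists were chosen with earlier results of these data known. Named members are the 12 highest in CPM, the 6 next highest per length, the 8 lowest p-values per direction, the 6 widest ranges between libraries, those nearest the 0.5 CPM rule, names tied to a role, and the nearest coding genes of these.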

Additional observations from a re-analysis of the deposited data

How the results depend on the processing

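No member passed an adjusted p of 0.05 under any of the settings or with any library left out, nor at 0.1. Over all genes tested the count was 0 except without a filter on low counts, where 137 genes passed, none of them a member. At an unadjusted p under 0.05 there were 7 members (3.55%, against 7.14% of all genes tested). There were 15 without the filter (7.61%, against 6.64%), 4 among the 146 members with no exon base opposite another gene (2.74%, against 7.14%), and 3 to 12 with a library left out: 3 without CXCL10 replicate 4 (1.52%, against 3.79%), 12 without control replicate 1 (6.09%, against 7.14%) and 11 without control replicate 3 (5.58%, against 9.44%). The cause was not tested. The members' median log2 fold change of -0.08 was 0.0055 with library size only, 0.0036 with the gene length trend removed and -0.0047 with that and the replicate block, and from -0.11 to -0.04 with a library left out. The number of members was 262 at 0.25 CPM and 133 at 1 CPM. Same-numbered libraries did not deviate together (correlations of 0.026, 0.019 and -0.051). With 3 libraries per group this cannot decide whether the numbers pair the samples, and the labels do not say. A replicate block gave 0 members called, 7 at an unadjusted p under 0.05 and a median of -0.07. Of 859 fold changes of named members under the settings, 54 in 17 members turned sign, all with a size of at most 0.45 in the first place, 9 of them without CXCL10 replicate 3 and 7 without control replicate 4. With library size only the log2 fold change was 0.0063 for LINC00963, 0.016 for LINC00667, 0.0043 for LINC02169 and 0.012 for LINC02562. With the gene length trend removed the log2 fold change was 0.12 for LINC02169, 0.022 for LINC01003 and 0.072 for LINC02562. With that and the replicate block the log2 fold change was 0.12 for LINC02169, 0.020 for LINC01003, -0.00016 for LINC02345 and 0.24 for LINC02562. With DESeq2 the log2 fold change was -0.0039 for LINC01605 and -0.0095 for LINC02345. With RLE size factors the log2 fold change was -0.0047 for LINC01605 and -0.0065 for LINC02345. With limma-voom the log2 fold change was -0.0088 for LINC01605, -0.014 for LINC01436, -0.077 for LINC02345 and 0.18 for LINC02562. With the replicate block alone the log2 fold change was -0.00032 for LINC01605, -0.018 for LINC01436, -0.086 for LINC02345 and 0.091 for LINC02562. With upper-quartile factors the log2 fold change was -0.0041 for LINC01605, -0.0028 for LINC01436 and -0.012 for LINC02345. With a library left out it ran from -0.060 to 0.25 for LINC00342, -0.041 to 0.33 for LINC00504, -0.088 to 0.17 for LINC00599, -0.13 to 0.035 for LINC00963, -0.23 to 0.20 for LINC01010, -0.20 to 0.055 for LINC01094, -0.50 to 0.048 for LINC01140, -0.0091 to 1.35 for LINC01215, -0.23 to 0.059 for LINC01278, -0.17 to 0.18 for LINC01436, -0.14 to 0.16 for LINC01605, -0.18 to 0.071 for LINC02169, -0.34 to 0.75 for LINC02296, -0.44 to 0.30 for LINC02345 and -0.51 to 0.42 for LINC02562. Depth limits the members below 1 CPM, whose intervals mostly exceed a change of 2-fold.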
